A study of Mus musculus with 12 samples.

Results

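Chromosome 5 was examined in 12 mouse tumours because its DNA copy number moved repeatedly between loss, gain and no change in 1 of them, the wild-type renal cell carcinoma WT1179. The data on it are the 10174 array probes that the scanner files place on chromosome 5 of mouse build mm9, of 161460 probes on autosomes and 170305 probes in all. The chromosome was selected on these same measured ratios, so every value of WT1179 here is a description, given with no test.

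Each tumour was hybridised once, as red-labelled DNA against a common green-labelled reference from normal kidney of C57BL/6 mice, the strain of the tumour-bearing mice as well. Of the 4 renal cell carcinomas, KO1080, KO1097 and KO1134 came from Mutyh knockout mice and WT1179 from a wild-type mouse, all given ferric nitrilotriacetate (Fe-NTA). The 8 malignant lymphomas were KO1077 and KO1111 (knockout, Fe-NTA), KO1414 (knockout, untreated), WT1113, WT1114 and WT1121 (wild type, Fe-NTA), and WT1405 and WT1420 (wild type, untreated). Treated mice were males that received Fe-NTA intraperitoneally 5 times weekly for 12 weeks, with iron doses per kg of 3 mg in week 1 and 5 mg during the remaining 11 weeks, and mice were killed at about 120 weeks. The group of wild-type carcinomas is a single tumour, so nothing measured in WT1179 can be ascribed to genotype or treatment. Each array carries DNA of a whole tumour sample, in which a smaller copy change and a smaller share of cells with that change cannot be told apart.

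Array comparative genomic hybridisation reads the amount of tumour DNA at each probe relative to normal DNA, so a stretch with fewer copies lies below 0 on the log2 scale and a stretch with more copies lies above it. Many switches between a few copy levels along a single chromosome are among the features used in cancer genomics to describe clustered rearrangement. The arrays give the amount of each stretch and the place where the amount changes. They do not give the order, orientation or joining of the pieces, which were not measured here. Mutyh is a DNA glycosylase that repairs adenines mispaired with oxidised guanine, and Fe-NTA is an iron chelate that causes oxidative damage in the kidney.

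Changes of copy level inside genes are shown first by the probes on their sides, since these bound the break as closely as the array allows. The adhesion receptor gene Lphn3, now named Adgrl3, was crossed by 3 changes in WT1179, of which the first rests on the gene's outermost probe and the other two lay well inside it, and the Mediator subunit gene Med13l by 1. The array's 60-base probes next to those changes are given whole, in lower case, as the scanner files list them. The files do not state a probe's strand or whether it is exonic or intronic, and neither was looked up here. Gene strands given below come from a separate gene annotation.
Lphn3, chr5:81539246-81539305, last probe at the unchanged level: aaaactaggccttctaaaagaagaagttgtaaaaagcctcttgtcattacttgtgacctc
Lphn3, chr5:81552440-81552499, first lost probe: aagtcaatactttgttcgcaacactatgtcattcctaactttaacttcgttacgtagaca
Lphn3, chr5:81801562-81801621, last lost probe: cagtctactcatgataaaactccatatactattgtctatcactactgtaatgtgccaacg
Lphn3, chr5:81814561-81814620, first gained probe: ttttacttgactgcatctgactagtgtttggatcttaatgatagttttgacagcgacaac
Med13l, chr5:119073537-119073596, last probe at the unchanged level: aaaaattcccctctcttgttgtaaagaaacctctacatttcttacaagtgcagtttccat
Med13l, chr5:119081164-119081223, first gained probe: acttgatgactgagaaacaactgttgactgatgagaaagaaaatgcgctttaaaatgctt

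At the first of these Lphn3 pairs, the log2 ratio of WT1179 was 0.03 on the left probe and -0.84 on the right probe. At the second pair it was -0.69 on the left and 0.50 on the right, so neighbouring probes 12.94 kb apart lay on opposite sides of 0. At the same second pair the other 3 carcinomas read -0.10, -0.30 and -0.24 on the left, in KO1080, KO1097 and KO1134, and 0.14, -0.01 and 0.04 on the right. At the Med13l pair WT1179 read 0.10 on the left and 0.48 on the right. A single probe can thus sit well off 0 in a tumour with no call, and the positions rest on the runs of probes on each side.

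The probes of chromosome 5 spanned 149.3 Mb, from 3247009 to 152519030, at a median spacing of 10.69 kb, and 10154 of them gave a value on all 12 arrays. On each array over 99% of spots were above background on this chromosome, and the noise between neighbouring probes in WT1179 had an SD of 0.128. The 4 carcinomas shared 1 slide and the lymphomas lay on the other 2 of 3 slides, so tumour type and slide cannot be told apart. The label check on Mutyh gave log2 ratios from -3.21 to -2.39 in the 6 knockout tumours and from -0.75 to 0.14 in the 6 wild-type tumours at the probe at chr4:116490496-116490555, with no overlap. The other probe named Mutyh, at chr4:116480656-116480715, did not separate them, with -0.58 to 0.26 in knockouts and -0.82 to 0.20 in wild types.

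In WT1179, chromosome 5 was divided into 27 pieces with 26 break points, and each break point was a change between lost, uncalled and gained sequence. A piece was called when its mean lay at least 0.25 from 0 on the log2 scale over at least 5 probes. The 11 lost pieces added up to 66.5 Mb, which is 44.5% of the probed span, and the 7 gained pieces to 38.3 Mb, which is 25.7%. The 9 uncalled pieces made up 43.9 Mb, or 29.4%. Lost pieces had means from -0.82 to -0.67 with a median of -0.72, and gained pieces had means from 0.43 to 0.56 with a median of 0.51. The uncalled pieces lay between -0.21 and 0.10. Nearest to the threshold were the uncalled piece at -0.21 and the gained piece at 0.43, so the 0.25 setting lies in a gap of the gained levels and just beyond the deepest uncalled piece.

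**Figure D1:**
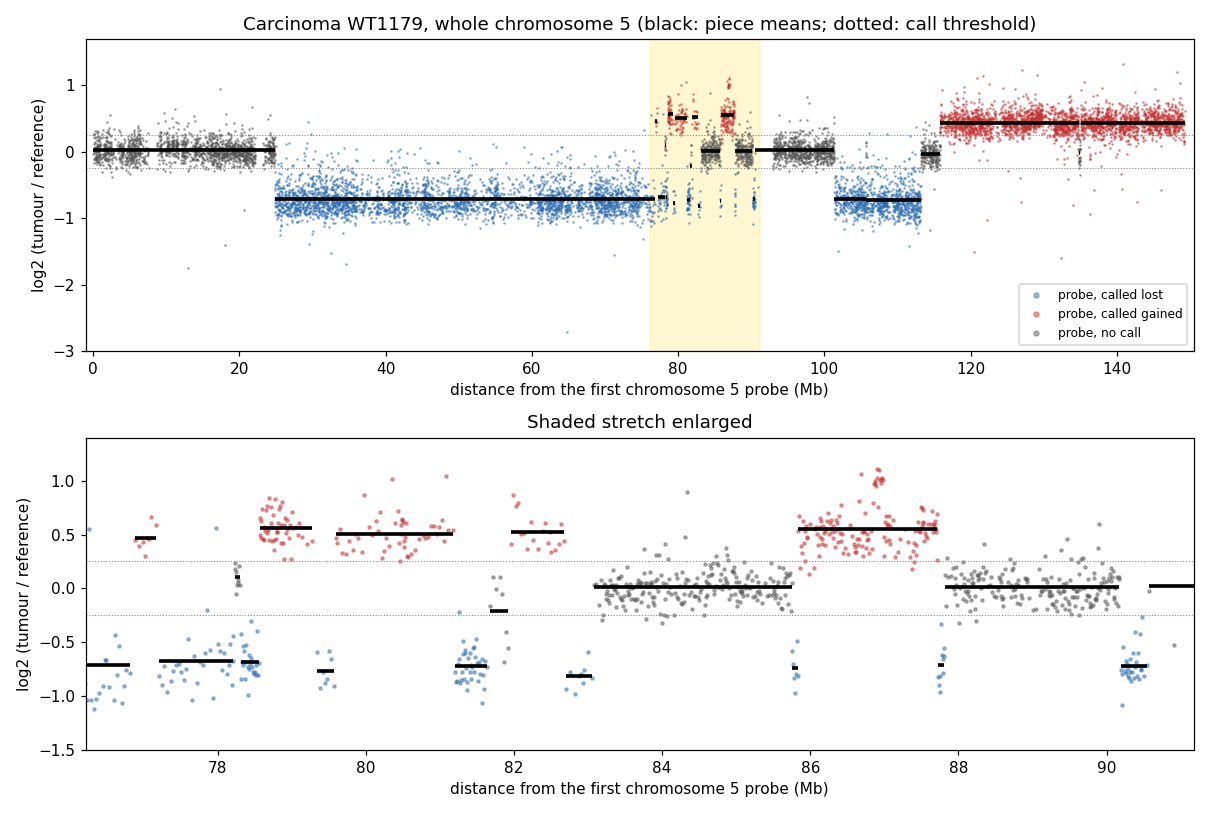
Log2 ratio of tumour to reference DNA for each probe of carcinoma WT1179 against distance from the first chromosome 5 probe in Mb, for the whole chromosome (top) and the shaded stretch (bottom). Points are probes coloured by the call of their piece, black lines are piece means and dotted lines mark 0.25 on either side of 0. Lost, uncalled and gained pieces alternate, and 18 of the 26 break points fall in the shaded stretch.

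The levels of the 18 pieces of at least 20 probes fell into 3 groups. Sorted by mean, these pieces were separated wherever neighbours differed by at least 0.15, and a separation of 0.10 or 0.20 gave the same 3 groups. They covered -0.73 to -0.67, -0.03 to 0.02, and 0.43 to 0.56. On the linear scale their means were 0.61, 1.00 and 1.41 times the reference. No piece mean lay below -0.82, which is 0.57 times the reference. On its other autosomes, WT1179 had 5 lost and 6 gained segments called over at least 20 probes. Their medians were -0.71 and 0.50, and they ran from -0.74 to -0.71 and from 0.44 to 0.93. The highest, 0.93 over 23 probes of chromosome 14, lay at a stretch that was also called gained in every other tumour except WT1113 and WT1114. The next highest was 0.87 over 378 probes of chromosome 15, from 43218775 to 50738919, above every chromosome 5 piece mean. There WT1113 and WT1405 were also called gained, at 0.286 and 0.290. The probe-weighted mean of the chromosome 5 losses was -0.715, beside -0.713 and -0.742 for the 2 lost segments of chromosome 4 and -0.714 for the loss of chromosome 12 in the same tumour.

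Gained pieces were not all at the same height. The 2 gained pieces over 10 Mb had a mean of 0.435. The 5 shorter ones, all in the stretch described next, had 0.540, a difference of 0.105 ± 0.008 (SE from probe noise). Their mean includes 14 probes near Adamts3 at 0.98, described below, which raise it. With a penalty of 5 in place of 10, the gain of 18.9 Mb was divided into stretches at 0.434, 0.521 and 0.393. The middle one lay inside the 0.47 to 0.56 of the shorter pieces, so height did not follow length alone. Lost pieces differed far less by length, by -0.008 ± 0.004 for the 10 shorter pieces minus the long one. These errors cover the noise between neighbouring probes, with an SD of 0.128, and not the spread between pieces. Nor do they cover the spread between tumours, since there is 1 array. Over all their probes the long and short gains had larger SDs, of 0.171 and 0.177. The long and short losses had 0.208 and 0.210, so the errors are lower limits.

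**Figure D2:**
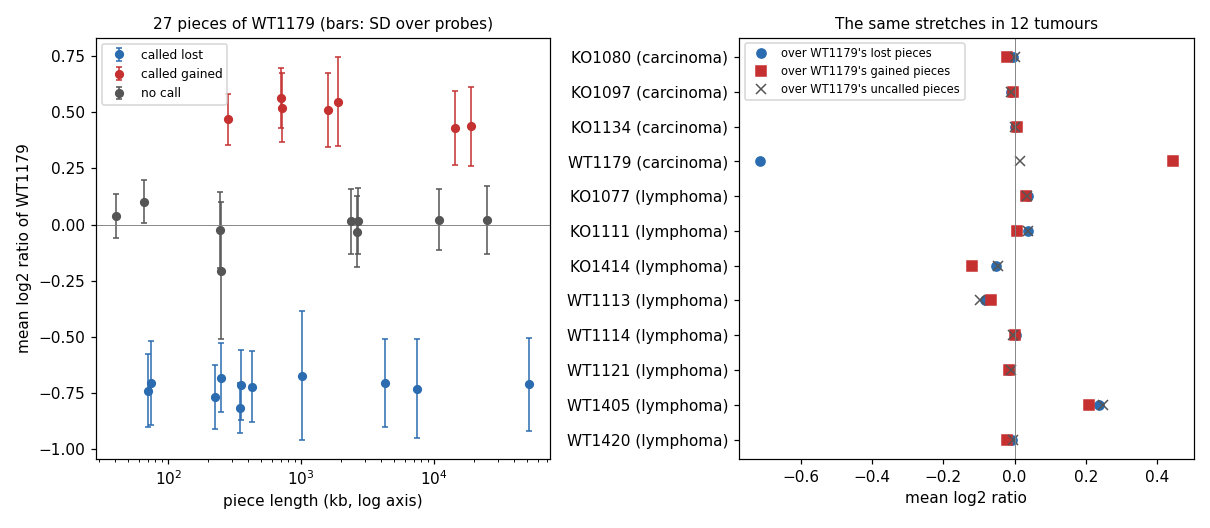
Left, mean log2 ratio of each of the 27 pieces of WT1179 against its length in kb on a log axis, with bars for the SD over its probes: lost pieces lie between -0.82 and -0.67, gained pieces between 0.43 and 0.56 and uncalled pieces between -0.21 and 0.10. Right, the mean over WT1179's lost, gained and uncalled pieces in all 12 tumours, where the gained exceed the lost stretches by 1.16 in WT1179 and by -0.068 to 0.015 in the others.

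From the start of the chromosome, the first piece was uncalled and ran for 24.8 Mb at 0.02. The longest piece was the loss from 28085343 to 80063316, 52.0 Mb at -0.71. It was followed by a stretch from 80063316 to 93821440, 13.8 Mb or 9.2% of the span, that held 18 of the 26 break points. Further on came an uncalled 10.8 Mb at 0.02, a loss of 4.30 Mb at -0.71, a 40.6 kb uncalled island, a loss of 7.43 Mb at -0.73 and an uncalled 2.63 Mb at -0.03. The chromosome ended in 2 gains of 18.9 Mb at 0.44 and 14.2 Mb at 0.43, which a 245.5 kb uncalled piece at -0.02 divided.

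Within the dense stretch, lost and gained pieces met directly 9 times, with steps of up to 1.34 on the log2 scale. On the whole chromosome, 13 further changes were between lost and uncalled sequence and 4 between gained and uncalled sequence. The shortest called pieces were losses of 70.6 kb over 7 probes at -0.74, holding Rufy3, and of 74.6 kb over 10 probes at -0.71. All 26 break points were placed between neighbouring probes, and the 95% likelihood interval of each was no wider than the gap between them. These gaps ran from 5.81 to 67.52 kb with a median of 16.6 kb.

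The dense stretch up to 86328725 carried few gene names. The gained piece from 80130839 to 80411406 at 0.47 and the lost pieces from 82585944 to 82809598 at -0.77 and from 85953315 to 86299347 at -0.82 held no gene name. A loss from 84455219 to 84881900 held a single named gene, Epha5, an ephrin receptor tyrosine kinase. Its 33 probes averaged -0.71 in WT1179, and in the other 11 tumours the gene lay between -0.14 and 0.28. The gain from 82835339 to 84428192 at 0.51 also held a single named gene, Tecrl, an endoplasmic reticulum protein of cardiac muscle, whose 9 probes averaged 0.54.

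1 uncalled piece, from 84915784 to 85163193, was mixed. Its first 5 probes read -0.17, 0.11, -0.01, 0.11 and -0.05, and its last 3 read -0.69, -0.40 and -0.55, the level of a loss. Its mean of -0.21 is therefore an average over both runs, of which the second is shorter than the minimum of 5 probes per segment.

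Of the 26 break points, 8 lay inside 6 genes, meaning that the nearest named probes on both sides carried the same gene name. That is 30.8% of the break points, while 56.7% of the 10160 intervals between neighbouring chromosome 5 probes, and 40.3% of their length, lay inside a named gene. The 6 genes were Paxip1, Lphn3, Afm, Rassf6, Cit and Med13l. In Paxip1, Afm, Rassf6, Cit and the first change in Lphn3, the call that the gene is crossed rests on 1 probe on 1 side. With the odd-numbered or the even-numbered probes alone, 5 and 4 break points lay inside a gene.

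Lphn3 encodes a latrophilin, an adhesion G protein-coupled receptor of neurons, and its 77 probes ran from 81457368 to 82219259. Its probes fell into 4 pieces in WT1179: 1 probe at -0.44, 9 probes at 0.10 ± 0.10, 25 probes at -0.68 ± 0.15 and 42 probes at 0.58 ± 0.13 (SD over probes). Over the 25 lost probes the other tumours lay between -0.18 and 0.27 with a median of 0.02, and KO1080, KO1097 and KO1134 read 0.03, -0.04 and -0.01. Over the 42 gained probes they lay between -0.21 and 0.28 with a median of -0.01, and the same 3 carcinomas read 0.03, -0.02 and -0.02. WT1179 was below all 11 in the lost part and above all 11 in the gained part. The 9 probes of the uncalled island, from -0.05 to 0.23, overlapped the other tumours.

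Afm, which encodes the serum vitamin E carrier afamin, and Rassf6, a Ras association domain gene, held the 2 ends of the same loss of 74.6 kb. In Afm, 3 probes averaged 0.49 in WT1179 and the fourth read -0.82. In the other tumours these parts lay between -0.05 and 0.14 and between -0.28 and 0.09. In Rassf6, 4 probes averaged -0.66, against -0.07 to 0.38 elsewhere, and the last probe read 0.12, inside the other tumours' range of -0.00 to 0.34.

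Paxip1, a BRCT domain protein of the DNA damage response and of a histone methyltransferase complex, lay at the left end of the longest loss. Its first probe read 0.22 and the other 5 averaged -0.73 in WT1179, against -0.21 to 0.25 for those 5 probes in the other tumours. The annotation places Paxip1 on the minus strand, so the uncalled probe is at the side of its 3′ end. Cit encodes citron kinase, which acts in cytokinesis, and lay at the right end of the loss of 7.43 Mb. Of its 15 probes, 14 averaged -0.74 and the last, on the side of its 3′ end, read 0.02. Med13l, on the plus strand, marked the start of the long gains. Its first 8 probes averaged 0.07 and the following 15 averaged 0.45, against -0.16 to 0.24 for those 15 probes in the other tumours.

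The gain from 89086332 to 90960520 held the liver-type plasma protein genes Gc, Alb and Afp, the deoxycytidine kinase gene Dck and the bicarbonate cotransporter gene Slc4a4. Gc averaged 0.40, Alb 0.62 and Afp 0.61, Dck averaged 0.47, and the 33 probes of Slc4a4 averaged 0.54. Adamts3, a procollagen-processing protease gene, stood higher, at 0.80 over 22 probes, against -0.11 to 0.26 in the other tumours. Its probes were split: 13 averaged 0.99 and ranged from 0.76 to 1.1, and the other 9 averaged 0.53 and ranged from 0.30 to 0.67. With a penalty of 5 in place of 10, the segmentation set apart a stretch of 14 probes from 90094259 to 90228290, 134.0 kb long, at 0.98 or 1.97 times the reference. Over this stretch KO1080, KO1097 and KO1134 read 0.06, 0.04 and 0.04, and the 8 lymphomas ranged up to 0.26 in WT1405. It was the only stretch of chromosome 5 in WT1179 with a mean above 0.8 at that penalty. The main penalty did not separate it, and its 14 probes fall short of the 20 needed for the grouping into 3 levels above. It could therefore not form a level of its own there. Its probes are counted there within the gained piece from 89086332 to 90960520, at 0.55.

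Short islands at the reference level also lay inside losses. The island inside Lphn3 is described above. The second, from 108949889 to 108990477, held 6 probes at 0.04 between losses of 4.30 and 7.43 Mb at -0.71 and -0.73. 4 of these probes are named Cplx1, a regulator of neurotransmitter release. They averaged 0.08 in WT1179, and the other tumours lay between -0.25 and 0.17. Another uncalled piece, from 138030984 to 138276523, held 27 probes at -0.02 between the final gains. It contained 10 gene names, from Fbxo24 to Pilra. Its left boundary came after the last probe of Trfr2, now named Tfr2, the transferrin receptor 2 gene, whose 2 probes averaged 0.24.

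The array names 1301 genes on chromosome 5, each assigned the call that most of its probes had. Of these, 543 or 41.7% were lost in WT1179, where 15.2% of all autosomal genes were called lost. Gains covered 448 genes or 34.4%, where 5.31% of all autosomal genes were called gained. The chromosome was chosen for these calls and the background includes it, so nothing is read from the difference. For 541 of the 543 lost genes the value of WT1179 was below those of all 11 other tumours, and for 419 of the 448 gained genes it was above them. These genes were called from the same values of WT1179 and no other tumour had a call here. The counts were thus largely set by the calling and add no support. The median over all chromosome 5 genes was -0.02 and over all autosomal genes -0.01.

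**Figure D3:**
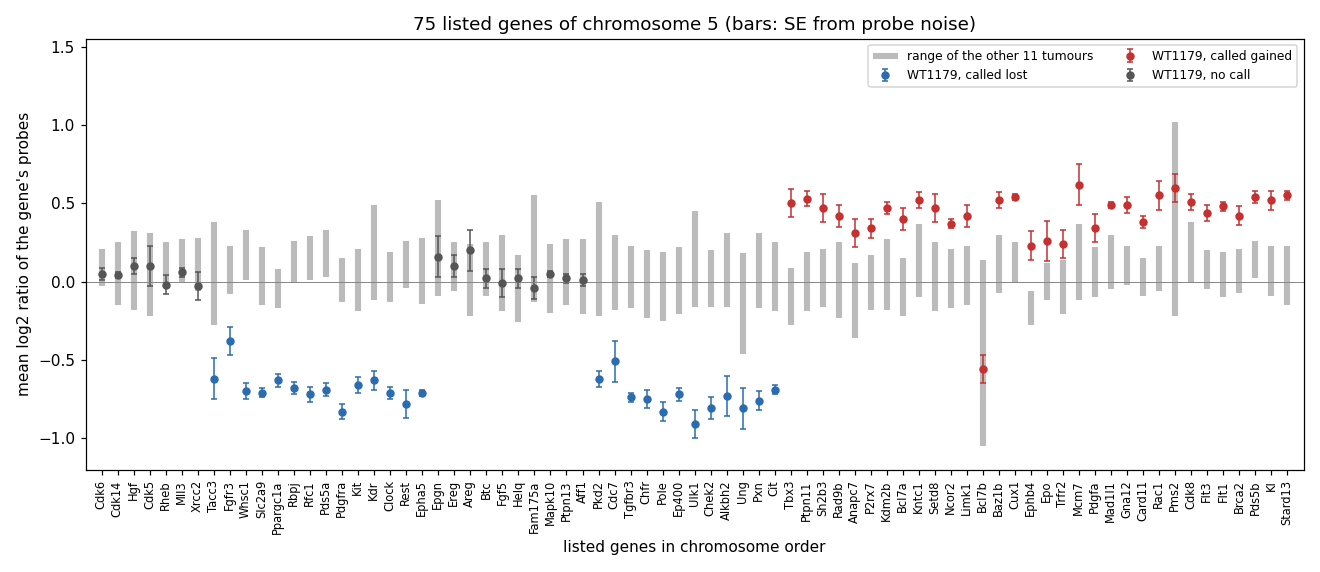
Mean log2 ratio of the probes of 75 listed genes in WT1179, in chromosome order, with bars for the SE from probe noise and grey bars for the range of the other 11 tumours. All 26 lost genes lie below the grey bars and 30 of the 32 gained genes above them, the exceptions being Bcl7b and Pms2. The genes were called from these same values, so this is a description only.

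Genes of DNA repair, replication and checkpoints lay on both sides. Of 14 on the array, 7 were lost, 4 gained and 3 uncalled. Pole, the catalytic subunit of DNA polymerase epsilon, read -0.83 (5 probes), and the checkpoint kinase gene Chek2 read -0.81 (3 probes). Ung, the uracil DNA glycosylase of base excision repair, read -0.81 on its only probe, and Rfc1, the large subunit of the clamp loader, read -0.72 (8 probes). In the other tumours Pole lay between -0.25 and 0.19, Chek2 between -0.16 and 0.20, Ung between -0.46 and 0.18 and Rfc1 between 0.01 and 0.29. Among the gained genes, Brca2, which acts in homologous recombination, read 0.42 over 4 probes, against -0.07 to 0.21 elsewhere. Pms2, a mismatch repair gene, read 0.60 over 2 probes but did not exceed the highest other tumour, at 1.02.

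Of 7 chromosome segregation genes on the array, 3 were lost and 4 gained, or 42.9% and 57.1%. Of all named genes of the chromosome, 41.7% were lost and 34.4% gained, so nothing is read from this small count. The paralogous cohesin regulators Pds5a and Pds5b lay in pieces of opposite sign, at -0.69 over 9 probes and 0.54 over 12 probes. Mad1l1, of the spindle checkpoint, read 0.49 over 33 probes.

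Receptor tyrosine kinase genes were divided by position. The cluster of Pdgfra, Kit and Kdr, receptors for platelet-derived growth factor, stem cell factor and vascular endothelial growth factor, lay in the longest loss and read -0.83, -0.66 and -0.63. Flt1 and Flt3, near the end of the chromosome, were gained at 0.48 and 0.44. In the other 11 tumours Kit lay between -0.19 and 0.21 and Flt1 between -0.10 and 0.19, and the WT1179 means lay outside these ranges. Both genes were called from the same values, so this adds no support. The 8 Kit probes of WT1179 ran from -0.96 to 0.03. The EGF-family ligand genes Ereg, Areg, Btc and Epgn lay in an uncalled piece of the dense stretch, at 0.10, 0.20, 0.02 and 0.16, inside the other tumours' ranges. Of the 15 genes on this list, 5 were lost, 4 gained and 6 uncalled. That is 33.3% lost and 26.7% gained, beside 41.7% and 34.4% of all named genes of the chromosome.

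Among 4 cyclin-dependent kinase genes, Cdk8, of the Mediator kinase module, was gained at 0.51, and Cdk5, Cdk6 and Cdk14 lay in the uncalled first piece at 0.10, 0.05 and 0.04. Of 15 chromatin and transcription genes, 5 were lost and 8 gained, or 33.3% and 53.3%. Of all named genes of the chromosome, 41.7% were lost and 34.4% gained, so nothing is read from this small count. The histone methyltransferase gene Whsc1, now Nsd2, read -0.70, and the Notch effector gene Rbpj read -0.68. The homeobox gene Cux1 read 0.54 over 34 probes. Bcl7b, a subunit gene of the SWI/SNF complex, is called gained by its piece yet averaged -0.56, because 1 of its 2 probes read -1.59 and the other 0.47.

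Of 7 kidney and iron genes, 3 were lost and 4 gained. The polycystin gene Pkd2 read -0.62 over 6 probes, and the urate transporter gene Slc2a9 read -0.71 over 16 probes. Kl, which encodes the kidney ageing-related protein klotho, read 0.52 over 5 probes. Of 13 signalling genes, 3 were lost and 7 gained. The phosphatase gene Ptpn11 read 0.53 over 6 probes, and the autophagy kinase gene Ulk1 read -0.91 over 2 probes, the lowest of all listed genes. Over all 75 listed genes, 26 were lost and 32 gained, which is 34.7% and 42.7%, beside 41.7% and 34.4% of all named genes of the chromosome. All 17 uncalled genes lay inside the range of the other tumours.

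In the piece with the lowest mean among those of at least 20 probes, the loss from 109005444 to 116435844, the genes with most probes were Ttc28, Myo18b and Sez6l. They read -0.73 over 43 probes, -0.78 over 23 and -0.73 over 17. The loss from 93437235 to 93787990 held Sept11, now Septin11, a cytoskeletal septin, at -0.77 over 8 probes, and the cyclin gene Ccni at -0.61 over 2.

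No other tumour had a called segment on chromosome 5, so at the 0.25 threshold no piece of WT1179 was shared. Under other settings of the centring, penalty, threshold or background correction, up to 3 lymphomas, among WT1405, KO1414 and WT1113, had a call. Over all autosomes, 5.89% of the probe values of the other 11 tumours lay in segments called lost and 3.99% in segments called gained. The mean log2 ratio of the chromosome was -0.01 in KO1080, -0.01 in KO1097 and 0.002 in KO1134, beside -0.17 in WT1179. Among the lymphomas the lowest was -0.08 in WT1113 and the highest 0.23 in WT1405. The mean over the 4 carcinomas was -0.046 ± 0.083 (SD), and without WT1179 it was -0.004 ± 0.006 (SD, n = 3). The 8 lymphomas averaged 0.015 ± 0.097 (SD), which overlaps the carcinomas.

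**Figure D4:**
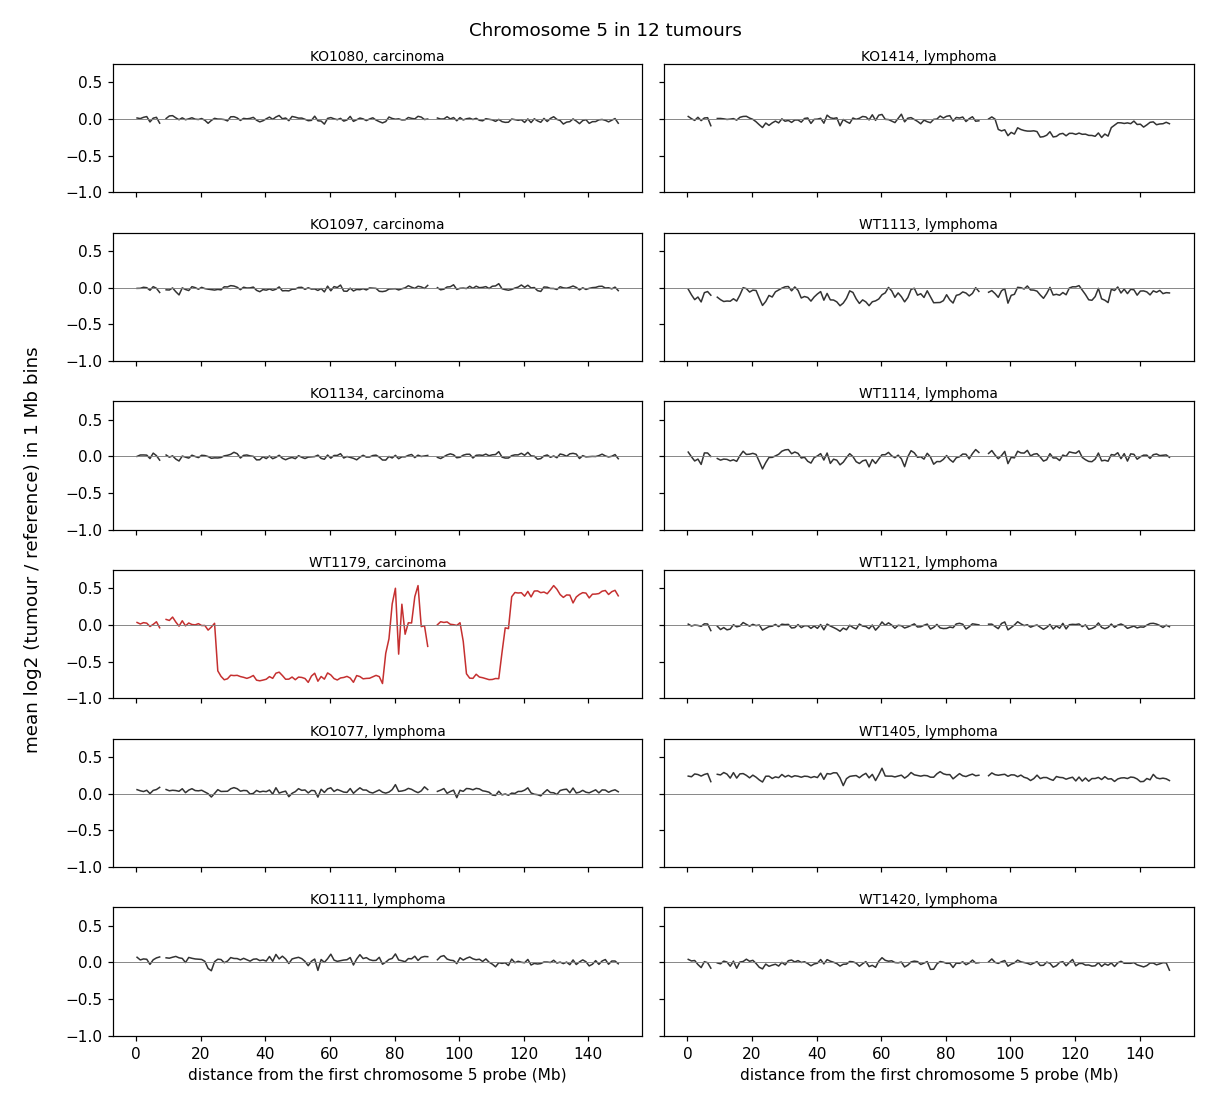
Mean log2 ratio in 147 bins of 1 Mb with at least 20 probes each along chromosome 5, against distance from its first probe in Mb, for 12 tumours. Across the bins WT1179 (red) has an SD of 0.482, and the other 11 tumours (dark grey) have SDs from 0.024 to 0.086.

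The pieces of WT1179 were set against the same stretches elsewhere. Its gained pieces exceeded its lost pieces by 1.16 on the log2 scale, and in the other 11 tumours this difference ran from -0.068 to 0.015. The bins of 1 Mb had an SD of 0.482 in WT1179 and of 0.025, 0.024 and 0.024 in KO1080, KO1097 and KO1134. The lymphomas had bin SDs from 0.028 in WT1121 to 0.086 in KO1414.

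3 lymphomas had uncalled segments at least 0.15 from 0. WT1405, an untreated wild-type lymphoma, had the whole chromosome above 0, as 2 segments at 0.247 and 0.206, the first just under the threshold. It covered lost, gained and uncalled pieces of WT1179 alike. The height of WT1405 depends on the centring, since its mean was 0.157 when centred on the median of autosomal probes in place of their mode. However, 7 of its autosomes had means above 0.1. With mode centring, its chromosomes 6, 11, 15 and 17 were called gained, at 0.516, 0.274, 0.290 and 0.266. Its chromosomes 1 and 18 lay uncalled at 0.243 and 0.231, and chromosomes 2, 3 and 4 at -0.011, -0.015 and -0.018. KO1414 had a segment from 99208076 to 134347680 at -0.20, of which 11.7 Mb lay in lost and 15.3 Mb in gained pieces of WT1179. WT1113 had 9 segments from -0.158 to 0.002, and the lowest, from 24984759 to 29797646, included the start of the longest loss of WT1179 without sharing its border.

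The other tumours' boundaries on chromosome 5 were small, with steps of at most 0.192. They lay between 249.1 kb, in WT1405, and 15838.1 kb from the nearest break point of WT1179, so none coincided with one.

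**Figure D5:**
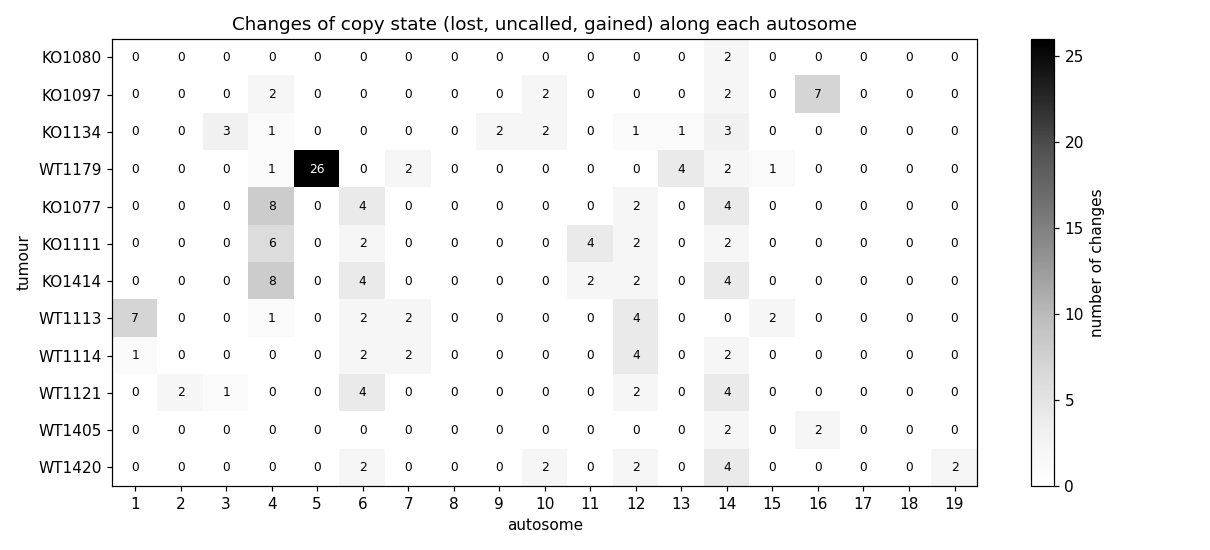
Number of changes between lost, uncalled and gained sequence along each of 19 autosomes in 12 tumours. Chromosome 5 of WT1179 has 26, and the highest other value is 8, on chromosome 4 of KO1077 and of KO1414.

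The 26 changes stand beside the counts for other chromosomes. Of 227 other pairs of a tumour and an autosome, 173 had 0 changes and the highest had 8. The counts of 8 came from short lost segments on chromosome 4 of KO1077 and KO1414, in stretches that the other knockout tumours also had lost. No wild-type tumour had short lost segments there, so these counts went with the genotype label. Chromosome 16 of the carcinoma KO1097 had 7 changes over 12 segments, with lost, uncalled and gained sequence, so repeated switching was not confined to WT1179. WT1179 had 10 changes on its other autosomes together, at most 4 on chromosome 13, and 13 of these autosomes had 0. Of the 10, 2 bordered the chromosome 14 gain that most other tumours shared. Chromosome 5 was picked from these counts, so the gap is described and not tested.

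Single probes far from their piece were present as well. In WT1179, 20 chromosome 5 probes lay at least 1 from the mean of their piece, 13 below it and 7 above it. Of the 7 above, 3 without a gene name, at 78637678, 79501176 and 81216702 in lost pieces, read 0.33, 0.55 and 0.56 in WT1179 and lay within 0.5 of 0 in all 11 other tumours. At all 13 below, the other 3 carcinomas lay below 0 as well. The probe at chr5:67998428-67998487 read -2.71, and the other 3 carcinomas also read low there, from -1.98 to -1.30, whereas 8 of the other 11 tumours lay within 0.5 of 0. At the probe of Bcl7b at chr5:135644875-135644934, the carcinomas KO1080, KO1097 and KO1134 ranged from -2.13 to -1.49 and WT1179 read -1.59. These low probes moved with the carcinomas, which are also the arrays of 1 slide, and their part in the piece means was not tested beyond the settings given in the closing section. Each piece of WT1179 holds at least 5 probes, and with no minimum number of probes per segment the count of changes was 32.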

How the data were processed

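Tumour and reference DNA were measured on Agilent 180K 2-colour arrays, 1 per tumour. The deposited intensity columns hold background-subtracted, dye-normalized signals, written per the file headers by Feature Extraction 10.7.1.1 (10.7 in the submitters' processing notes) with mm9 positions. The deposited log10 column is the ratio of red to green. The authors' series table holds uncentred log2 ratios, and it was used with the log10 column as an alternative. The log2 of red over green was computed, outlier-flagged spots were left out, spots of a probe were averaged and each array was centred on the mode of its autosomal probes (kernel bandwidth 0.05). Outlying single probes were kept. Chromosomes were segmented by penalised least squares (penalty 10 times the log of the probe number times the noise variance, at least 5 probes, Python 3.11.15, numpy 2.4.6), which was tested on simulated data. limma 3.58.1 in R 4.3.3 gave the normexp alternative. The precision is limited by 1 array per tumour, and no comparison between groups was tested; the closing section applies a gap criterion to single tumours.

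Gene names are those of the array files. Of the 1301 names on chromosome 5, 973 matched a symbol or older symbol of RefSeq or Ensembl, and 4 names also found on another chromosome were left out. The genes named are those that a break point of WT1179 lay inside, members of 7 lists, and the genes with most probes in the 3 lowest lost and 3 highest gained pieces of at least 20 probes. Adamts3 falls under this rule, and its split was followed up after its value was seen. Genes outside the rule that the text names (Rufy3, Cplx1, Gc, Alb, Afp, Dck, Fbxo24 and Pilra) were chosen after their values were seen. Of the listed names, Rfc3, Ran, Ccng2, Setd1b and Abcg2 were not matched to an array gene of chromosome 5 and not analysed here, Kmt2c and Tfr2 were matched as Mll3 and Trfr2, and 1 other member of the lists is not reported here. The members and lists were chosen with earlier results of these data known.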

Additional observations from a re-analysis of the deposited data

Results flagged for a closer look

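Within the 4 carcinomas and within the 8 lymphomas, each of 4 chromosome 5 measures was searched for a tumour far from the others of its type, by the gap to the nearest tumour over the whole range. The criterion is meant to pick out about 1 in 20 such groups by chance. Chromosome 5 was selected on these same ratios, so that rate does not apply and no test is made. The 4 measures also share the same probes. WT1179 stood apart in all 4 among the carcinomas. Its chromosome 5 mean was -0.171, the others lying between -0.008 and 0.002. It had 26 changes of copy state, the others 0. The SD of its 1 Mb bins was 0.482, the others having 0.024 to 0.025. Its gained pieces exceeded its lost pieces by 1.159, the same stretches giving -0.018 to 0.007 in the others. WT1179 was chosen for these values, so they add no support. Among the lymphomas, WT1405 had a chromosome 5 mean of 0.233, the others lying between -0.082 and 0.036. That value too is a description, since the selection used the ratios of all tumours.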

How the results depend on the processing

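Results were recomputed under 14 planned settings and 3 chosen after seeing the data (mode bandwidths of 0.02 and 0.10, and no minimum segment length). In all of them WT1179 had between 19 and 32 changes of copy state, 66.4 to 66.9 Mb lost and 37.8 to 38.8 Mb gained. Normexp background correction moved the mean of the lost pieces to -0.907 and of the gained pieces to 0.541. Break points inside a named gene numbered 5 with odd-numbered probes and 4 with even-numbered probes, where flanking probes lie further apart. The count of other tumours with a call rose from 0 to 2 under normexp (WT1113, WT1405), to 1 with probe medians of the other arrays subtracted (WT1405), to 2 at a penalty of 5 (KO1414, WT1405), to 3 at a threshold of 0.15 (KO1414, WT1113, WT1405) and to 1 at a bandwidth of 0.02 (WT1405). Leaving out any 1 of the 11 could not change a count of 0 in the main setting, so it shows nothing about this result. The carcinoma mean ran from -0.062 to -0.004 when 1 carcinoma was left out, the latter without WT1179. Pieces of 5 to 7 probes with small steps are at the limit of what the probe spacing and noise resolve.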
